A study of Mus musculus with 20 samples.

Results

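The genes described here carry provisional names, Gm followed by a number or a code ending in Rik, and are abundant in mouse eggs and early embryos. They were chosen by name and by level: every such symbol whose mean normalized count was at least 1000 in both strains of the study, with Gm6763 and Gm20767 left out. The mean normalized count is the read count of a gene, divided by a size factor for each sample, averaged over all samples of a strain. The rule found 130 genes, 63 Gm and 67 Rik symbols, among 3159 symbols of this form and 24411 symbols in all. Both genes left out by name were under the threshold in C57BL/6J, at 204 and 365, so their exclusion changed nothing. Because the mean level chose the genes, the levels are given as a description with no test. Just inside the threshold lay 1110004E09Rik (1008 in C57BL/6J), Gm8787 (1019 in B6CASTF1) and A630095E13Rik (1025 in B6CASTF1). Just outside lay Gm16551 at 992, Gm29811 at 963 and Gm10857 at 946, all 3 in C57BL/6J.

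Poly(A) RNA was copied with an oligo-dT primer by Smart-seq2, a method for very small inputs, from batches of 10 to 15 wild-type, untreated eggs or embryos. The inbred strain C57BL/6J was sampled as MII eggs, which rest in the second meiotic metaphase, as zygotes in G1, as zygotes in G2 and as 2-cell embryos in G2, with 3 samples each. Of the F1 hybrid B6CASTF1, zygotes in G1 and in G2 were sampled 3 times each, and 2-cell embryos in G2 are represented by 2 samples; neither the direction of the cross nor the age of the females is stated. All embryos came from oocytes matured in culture for 12 hours after release from dbcAMP and fertilized in vitro. The files are the authors' 5 tables comparing consecutive stages within a strain, with no values per sample, so neither the depth nor the spread of single samples can be shown. The labels do not tell whether replicates had different mothers or dates, so a p here takes in the spread of these samples alone, which may be technical. Markers fixed for the eggs and embryos followed the labels: of 10 egg genes, 7 fell and 1 rose at the 2-cell stage in C57BL/6J and 9 fell and 1 rose in B6CASTF1, while of 8 measured 2-cell genes 4 rose in C57BL/6J and 7 rose and 1 fell in B6CASTF1. Of 5 blood and oviduct markers, which summed to 49.7 to 6349 normalized counts per stage and to 83.8 to 9379.9, Epcam rose at that step in both strains and Hba-a1 in B6CASTF1. Cumulus and granulosa markers summed to 302 to 1607 normalized counts per stage in C57BL/6J (B6CASTF1: 1262 to 2538), with 4 and 2 of 10 genes at 0, and sperm and testis markers to at most 204 and 249. Called among these at the 2-cell step were 1 cumulus gene higher and 1 lower in each strain (Cyp19a1 and Amhr2) and lower sperm genes, Akap4 in C57BL/6J and Prm2 and Acrv1 in B6CASTF1; the part of all these markers in the results was not tested.

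Gm symbols were given to gene models predicted from sequence, and Rik symbols to transcripts that the RIKEN full-length cDNA project had cloned. Such a name says only that no function had been assigned when the name was given. An egg is loaded with maternal RNA that is used and then destroyed after fertilization, while the embryo's own genome is switched on in a minor wave in the zygote and a major wave at the 2-cell stage. The title of the series names the second process and the nuclear receptor Nr5a2.

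All 130 genes were found in the RefSeq annotation of GRCm38.p6 by symbol or synonym, and the provisional name is partly out of date. RefSeq held 78 as protein coding, 35 as long noncoding RNA and 17 as pseudogenes, of which 16 are marked as transcribed. For 38 genes it used another symbol, and 37 of these were no longer Gm or Rik symbols: 8 were zinc finger genes (Zfp) and 6 belonged to the Prame-like family (Pramel). For 6430706D22Rik and 3110001I22Rik the matching symbols, Hjurp and Bfar, also stand in the tables as separate rows, so these 2 matches are uncertain. GENCODE M21 held 122 of the genes, 13 of them with 1 exon, and their longest transcripts had a median of 1809 nt.

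Many of these genes are copies, which limits how surely reads can be assigned to them. Of the 122 genes with a transcript, 29 had over 50% of their 31-base words in transcripts of other genes and 54 had under 5%. The copies were 22 of 75 protein-coding genes and 7 of 17 pseudogenes, and 0 of 30 long noncoding RNAs. In addition, 13 genes had over 10% of their exon bases under exons of the opposite strand, and the sources used here do not say whether strand was used in counting. How the authors split reads between copies is not stated, and values of the 29 copies are uncertain to that extent.

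The 130 genes together held 4.51% of the summed mean counts in C57BL/6J and 4.86% in B6CASTF1, with a median of 2811 and 3160 in the authors' deposited tables. Other genes at or above the threshold, 2364 in number, had medians of 2626 and 3180. The highest count was that of E330034G19Rik (chromosome 14, 24293214 to 24309960, GRCm38.p6), a protein-coding gene with 7 exons and no assigned role, at 137555 in C57BL/6J and 103226 in B6CASTF1. Next in both strains came E330021D16Rik on chromosome 6 at 70579 and 97374. The third in C57BL/6J was 2700029M09Rik on chromosome 8 at 46762, while its 28402 in B6CASTF1 stood behind 5 further genes, Gm10436, Gm2042, Gm13023, B020004C17Rik and Gm13084. It is now named Hpf1 and directs the enzyme PARP1 to serine residues at sites of DNA damage. The 10 highest counts of C57BL/6J further held the ubiquitin pseudogene Gm1821, the noncoding Gm16702, the pseudogene Gm13363, Gm15698 (now Elobl, an elongin B-like gene) and the Prame-like Gm10436, Gm2042 and Gm13023. In B6CASTF1 the 10 highest held the same Prame-like genes and Gm13084, together with Gm1821, B020004C17Rik and the zinc finger gene Gm14420. Counts grow with transcript length, so per kilobase of the longest transcript the order changed. On that scale E330034G19Rik was still the highest in C57BL/6J at 89090 counts per kilobase, followed by Gm1821 at 46888 and E330021D16Rik at 38929. In B6CASTF1 the pseudogene Gm1943, whose GENCODE transcript has 174 nt and lies wholly within Wdr70 in its 31-base words, reached 78764 counts per kilobase, ahead of E330034G19Rik at 66856 and E330021D16Rik at 53709. In RefSeq Gm1943 is longer, from 109339787 to 109340908 on chromosome 8, so its value per kilobase depends on the annotation. Across the 130 genes the log2 mean counts of the strains had a Pearson r of 0.71 and a Spearman rho of 0.59, and across other genes at or above the threshold 0.76 and 0.67. These points share the annotation and the method, and the strains share no samples.

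**Figure D1:**
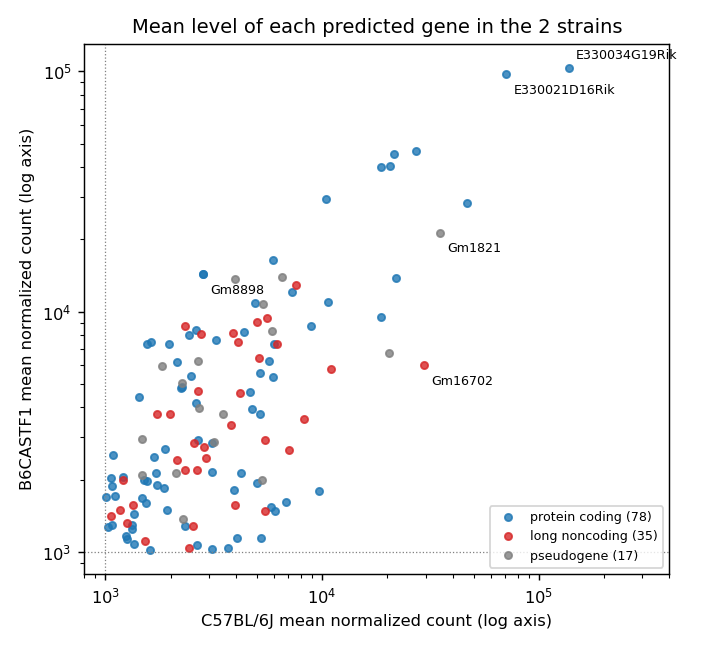
Each point is 1 of the 130 genes, placed by its mean normalized count in C57BL/6J (horizontal, log axis) and in B6CASTF1 (vertical, log axis) and coloured by RefSeq class. Dotted lines mark the threshold of 1000, and E330034G19Rik and E330021D16Rik stand above all other points in both strains.

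An approximate level was computed for each stage so that the levels weighted by sample number average to the strain's mean and differ by the deposited fold changes; it is called the implied level and has no error. Implied levels showed that most of these genes were not steadily abundant: 45 of 130 stayed at or above 1000 in every stage of C57BL/6J and 52 in every stage of B6CASTF1. In C57BL/6J the highest stage was the MII egg for 22 genes, the G1 zygote for 9, the G2 zygote for 59 and the 2-cell embryo for 40. In B6CASTF1 the G1 zygote was highest for 33, the G2 zygote for 54 and the 2-cell embryo for 43. Genes at or above 1000 in the 2-cell stage only numbered 19 and 20, so a mean over stages admits genes that were nearly silent before. Their share of all implied counts was highest in G2 zygotes, at 5.68% in C57BL/6J and 6.37% in B6CASTF1, against 3.52% and 3.64% in 2-cell embryos.

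Few of them were called between the MII egg and the G1 zygote, a step measured in C57BL/6J only. For it the authors' deposited table (DESeq2, Wald test) called 13 of the 125 genes it tested higher (10.4%) and 2 lower (1.6%) at an adjusted p under 0.05. At an unadjusted p under 0.05 the counts were 26 and 7. Over all genes tested the same table called 1.62% higher and 1.12% lower, and among other abundant genes 4.28% and 2.98%. The remaining 5 genes (Gm4850, Gm813, Gm20362, Gm5434 and Gm3286) carry no p-value in C57BL/6J and were not tested in that strain. The median log2 fold change was 0.15, and -0.13 among other abundant genes. Gm17821, a pseudogene on chromosome 12, rose by 1.87 ± 0.43 (SE) on the log2 scale, from an implied 628 to 2298. The protein-coding 1110008F13Rik, now Rab5if, rose by 1.86 ± 0.34, and the noncoding 1300002E11Rik by 1.85 ± 0.36. Also called were Gm14420, Gm6182 and Gm14296 of a zinc finger group on chromosome 2 and the Prame-like Gm10436 and Gm2042. The 2 genes that fell were 1110059G10Rik (log2 fold change -1.03 ± 0.27) and the pseudogene Gm11517, whose implied level went from 22.3 to under 1, too low for a fold change.

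During the zygote's cell cycle the calls went mostly upward. The values are of RNA copied from its poly(A) tail, so whether a rise at this step or the one before came from new transcripts was not tested. From G1 to G2 in C57BL/6J the authors' DESeq2 test called 30 of 125 genes higher and 0 lower; at an unadjusted p under 0.05 the counts were 41 and 6. The same table called 5.01% of all genes tested higher and 2.87% lower, and 10.1% and 5.27% of other abundant genes. In B6CASTF1, 49 of 130 rose and 11 fell, against 9.63% higher and 9.63% lower over all genes tested and 16.4% and 27.7% of other abundant genes. Median log2 fold changes were 0.49 and 0.38, and -0.19 and -0.21 among other abundant genes. Other Gm and Rik genes, those outside the rule, had medians of 0.74 and 0.33, so an upward median was not particular to the abundant ones. Long noncoding RNAs made up a large part of the rises: 14 of 34 tested rose in C57BL/6J and 20 of 35 in B6CASTF1, where 1 fell. Of the protein-coding genes 12 of 76 and 23 of 78 rose, and of the pseudogenes 4 of 15 and 6 of 17.

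The 23 genes that rose from G1 to G2 in both strains held noncoding RNAs, zinc finger genes and pseudogenes. The noncoding Gm6313 on chromosome 6 went from an implied 2320 to 6967 in C57BL/6J and from 1511 to 5082 in B6CASTF1, a log2 fold change of 1.59 ± 0.33 and 1.75 ± 0.15 (SE) in the authors' deposited tables. The noncoding Gm16070 on chromosome 1, annotated as antisense, rose by 1.61 ± 0.36 and 2.14 ± 0.12. For 2610507I01Rik on chromosome 11 the rises were 1.66 ± 0.37 and 2.21 ± 0.25, and for 9530091C08Rik on chromosome 9 they were 1.33 ± 0.36 and 1.93 ± 0.14. A730082K24Rik, a noncoding gene on chromosome 7, rose by 1.69 ± 0.50 and 1.69 ± 0.15. The protein-coding 0610009B22Rik had the highest rise of C57BL/6J among genes that were not near 0 in G1, from an implied 1815 to 11674 (2.69 ± 0.33), and rose by 1.88 ± 0.26 in B6CASTF1. All 6 of these rises were transient: each of these genes fell again at the 2-cell stage in both strains, with log2 fold changes from -1.45 to -5.75. Gm16702, the noncoding gene with the highest count in C57BL/6J, rose again at the 2-cell stage, to an implied 70549 in C57BL/6J and 11836 in B6CASTF1.

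Of the 11 genes that fell from G1 to G2 in B6CASTF1, 0 were called in C57BL/6J, where the test called 0 of all 125 genes lower. Over all genes tested it called 2.87% lower in C57BL/6J and 9.63% in B6CASTF1. The strain difference, tested further below, did not pass for any of the 11. 1110059G10Rik had a log2 fold change of -1.72 ± 0.22 in the authors' deposited table and Gm12942 (now Tmem35b) of -1.39 ± 0.23. Their C57BL/6J values, -0.69 ± 0.27 and -1.02 ± 0.86, lay in the same direction with larger errors. E330034G19Rik was also called lower (-0.35 ± 0.13), a call that was lost when the comparison was centred on the median of genes with a mean of at least 100.

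**Figure D2:**
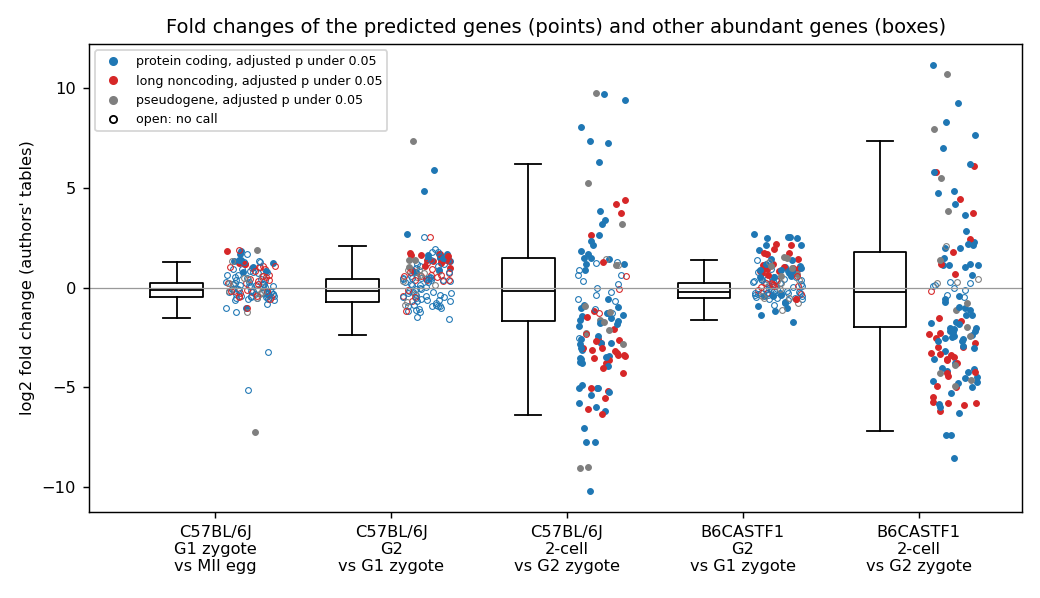
Log2 fold changes of the tested genes in each of the 5 comparisons are drawn as points, filled where the adjusted p was under 0.05 and coloured by RefSeq class; boxes give the quartiles of other genes with a mean of at least 1000 in both strains, with whiskers to 1.5 times the box. The points lie mostly above 0 at the step from G1 to G2 and spread widely on both sides, more below than above, at the 2-cell step.

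Between the G2 zygote and the 2-cell embryo most genes of the set changed, and more fell than rose. In C57BL/6J 29 of 125 rose and 75 fell, and in B6CASTF1 37 of 130 rose and 80 fell, in the authors' deposited tables. Over all genes tested 25% rose and 25.3% fell in C57BL/6J, and 33.1% and 26.8% in B6CASTF1; among other abundant genes the shares were 31.8% and 34.9%, and 40.2% and 46.5%. In the set 23.2% rose and 60.0% fell in C57BL/6J and 28.5% and 61.5% in B6CASTF1, so the falls were more frequent than in both backgrounds. The share of rises was near that of all genes tested in C57BL/6J (25%) and lower than the other background shares. The rule bears on these counts: genes at or above 1000 in the 2-cell stage only, 19 and 20, and genes under 1000 in that stage, 51 and 48, passed through the stages where they were high and had to differ. Median log2 fold changes were -1.64 and -1.89, against -0.19 and -0.19 among other abundant genes. The median of all genes with a mean of at least 100 stood at 0.23 and 0.21 at this step, so relative to it the medians are lower still. Long noncoding RNAs fell in 25 of 34 and 26 of 35 cases, with medians of -3.04 and -3.28, and rose in 5 and 8. Calls of the strains largely coincided: 27 genes rose in both, 69 fell in both, and 6 were called in neither (1110004E09Rik, 2610524H06Rik, 6430706D22Rik, C330027C09Rik, Gm13363 and Gm14420). Called in B6CASTF1 alone were 7 rises and 8 falls, and in C57BL/6J alone 2 rises and 5 falls, while the 5 genes without a C57BL/6J p-value gave 2 rises and 3 falls in B6CASTF1. The remaining gene, the noncoding 2500002B13Rik on chromosome 8, fell in C57BL/6J (-1.17 ± 0.33) and rose in B6CASTF1 (0.68 ± 0.17). Across all 130 genes the 2-cell fold changes of the strains had a Pearson r of 0.95 and a Spearman rho of 0.94, and those of the step from G1 to G2 an r of 0.52 and a rho of 0.72, given as descriptions. Other abundant genes had an r of 0.91 and a rho of 0.91 at the 2-cell step, and 0.67 and 0.68 from G1 to G2. A likeness of the strains was thus not particular to the set. How much of a fall is fewer transcripts in each embryo and how much is a change in its total RNA cannot be told apart in normalized counts of batches.

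**Figure D3:**
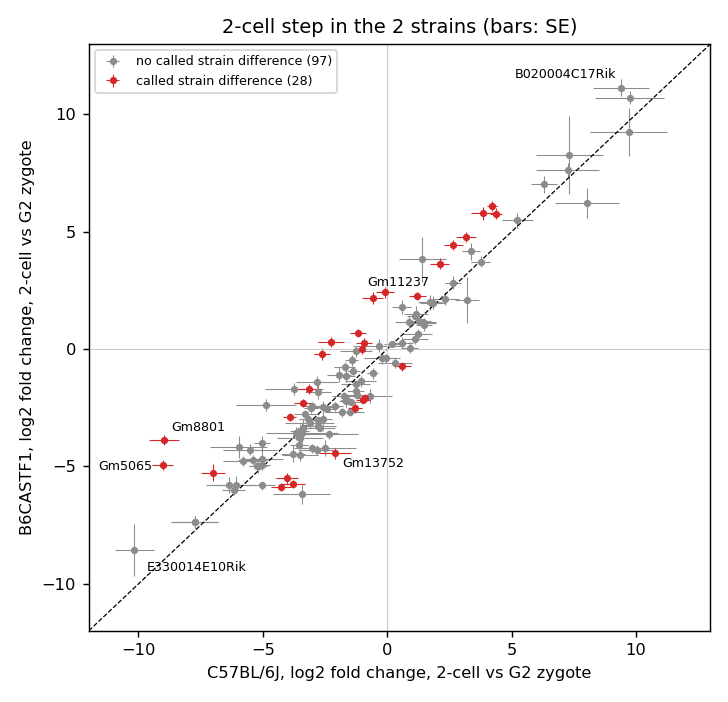
Each of the 125 genes tested in both strains is placed by its log2 fold change from G2 zygote to 2-cell embryo in C57BL/6J (horizontal) and B6CASTF1 (vertical), with bars of 1 SE and a dashed line of equal change. Red marks the 28 genes whose strain difference passed the test; Gm8801 and Gm5065 lie farthest above the line.

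The 2 genes with the highest counts were among those that fell. E330034G19Rik stood at an implied 220734 in MII eggs, 175098 in G1 and 150359 in G2 zygotes and 4028 in 2-cell embryos of C57BL/6J, and at 152737, 120013 and 3779 in the 3 stages of B6CASTF1. Its level was thus high in C57BL/6J eggs and in the zygotes of both strains and low in 2-cell embryos, with 2-cell log2 fold changes of -5.22 ± 0.35 (SE, DESeq2 adjusted p = 3.21e-47) and -4.99 ± 0.15 (adjusted p = 4.51e-256) in the authors' deposited tables. E330021D16Rik stood at an implied 126134, 100586, 53961 and 1633 in C57BL/6J and at 144545, 113763 and 2036 in B6CASTF1. The same step took 2700029M09Rik (Hpf1) from an implied 55152 to 10425 and from 32546 to 5562 (log2 fold changes of -2.40 ± 0.26 and -2.55 ± 0.15). Larger falls were seen among genes with lower counts. A430033K04Rik on chromosome 5 had log2 fold changes of -6.18 ± 0.45 and -6.00 ± 0.22, and 2610015P09Rik, now Ccdc191, of -7.01 ± 0.49 and -5.26 ± 0.37. The noncoding Gm19299 on chromosome 9 gave -5.01 ± 0.32 and -4.92 ± 0.23. In B6CASTF1 the noncoding 7420700N18Rik gave -6.19 ± 0.42, and Gm813, now Ftdc1, -6.28 ± 0.30.

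Genes that rose at the 2-cell stage were in part close to silent before it. B020004C17Rik on chromosome 14, protein coding in RefSeq and noncoding in GENCODE, had implied levels of 35.9 in MII eggs, 3.9 in G1 and 109 in G2 zygotes and 74678 in 2-cell embryos of C57BL/6J. In B6CASTF1 they were 127, 70.6 and 159386, the highest level of the set at that stage. The log2 fold changes of that step in the authors' deposited tables were 9.42 ± 1.13 (SE) and 11.14 ± 0.37. It reached the threshold of 1000 only through its 2-cell level, as did the other genes that were near silent before, so their rises had to be there and are given as descriptions. Gm11517, a pseudogene on chromosome 11 with 1 exon, went from an implied 24.4 to 21240 and from 25.8 to 42999. For Gm9, a protein-coding gene on the X chromosome, the levels were 32.6 and 27277 in C57BL/6J and 10.6 and 6464 in B6CASTF1. Gm16367 on chromosome 5 rose by 7.33 ± 1.33 and 8.29 ± 1.66, Gm7102 on chromosome 19 by 6.31 ± 0.53 and 7.02 ± 0.36, and 9930104L06Rik on chromosome 4 by 8.04 ± 1.29 and 6.21 ± 0.64. The rises of Gm10653 were 5.24 and 5.48, and this gene lies in part under exons of the opposite strand. Gm4850, the only member of the set on a list of 23 Gm-named genes known from 2-cell embryos, had no p-value in C57BL/6J and rose by 7.96 ± 0.84 in B6CASTF1. Of the 19 genes of that list in the tables, 10 of 12 tested rose in C57BL/6J and 17 of 18 in B6CASTF1. Over all genes of the list with a fold change, tested or not, the medians were 5.33 and 7.84. The noncoding 4933408N05Rik on chromosome 8 and 2310039L15Rik on chromosome 10 were already present in zygotes and rose by 4.21 ± 0.21 and 6.10 ± 0.22, and by 4.39 ± 0.24 and 5.77 ± 0.23. Before the 2-cell stage 2310039L15Rik was under 1000 in both strains and 4933408N05Rik in B6CASTF1, so the rule required these rises too.

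Neighbouring genes of the set formed 16 groups of at least 2 genes with gaps of at most 1 Mb, 42 genes in all, and 2 sets of zinc finger genes differed in their course. These groups were put together after the values were seen, so their counts are descriptions. The first lies on chromosome 2 and holds Gm8898 (now Zfp966), Gm6182 (now 2210418O10Rik), Gm14431 (now Zfp967), Gm14296, Gm14420 (now Zfp970) and Gm14325. The second lies on chromosome 4 and holds Gm13242 (Zfp980), Gm13051 (Zfp987), Gm13152 (Zfp982), 2610305D13Rik (Zfp979) and Gm13157 (Zfp984). Zinc finger proteins of this kind bind DNA, and many of those encoded in such young gene clusters repress transposable elements. Promoters from the RefSeq table for GRCm38.p6, 250 bases before to 50 bases after the start, are shown because those of chromosome 2 closely resemble each other. The 2 shown from chromosome 4 are the most alike of that group, in which the lowest match between a pair lies within the range found between the groups. Capitals mark the letters CCAAT, a box bound by the factor NF-Y, and CCGGAAG, a core bound by ETS factors, each on either strand, where the first reads ATTGG and the second CTTCCGG, and the 2 motifs cannot overlap each other. The genes shown are Gm8898 (chr2:175931051-175931350, minus strand), Gm14420 (chr2:177464492-177464791, plus strand), Gm14325 (chr2:177840287-177840586, minus strand), Gm13242 (chr4:145670447-145670746, plus strand) and 2610305D13Rik (chr4:147642459-147642758, minus strand).
Gm8898: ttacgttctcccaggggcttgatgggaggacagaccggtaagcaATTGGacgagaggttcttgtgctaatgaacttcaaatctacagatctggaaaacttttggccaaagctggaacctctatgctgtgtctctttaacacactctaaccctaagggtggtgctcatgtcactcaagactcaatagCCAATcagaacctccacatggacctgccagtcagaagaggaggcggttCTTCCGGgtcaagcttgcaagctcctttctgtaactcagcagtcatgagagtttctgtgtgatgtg
Gm14420: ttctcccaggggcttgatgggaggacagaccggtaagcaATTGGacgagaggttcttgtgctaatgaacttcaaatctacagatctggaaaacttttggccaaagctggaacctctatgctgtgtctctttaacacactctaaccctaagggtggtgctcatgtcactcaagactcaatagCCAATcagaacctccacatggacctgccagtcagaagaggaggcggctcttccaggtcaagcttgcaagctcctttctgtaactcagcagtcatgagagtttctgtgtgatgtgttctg
Gm14325: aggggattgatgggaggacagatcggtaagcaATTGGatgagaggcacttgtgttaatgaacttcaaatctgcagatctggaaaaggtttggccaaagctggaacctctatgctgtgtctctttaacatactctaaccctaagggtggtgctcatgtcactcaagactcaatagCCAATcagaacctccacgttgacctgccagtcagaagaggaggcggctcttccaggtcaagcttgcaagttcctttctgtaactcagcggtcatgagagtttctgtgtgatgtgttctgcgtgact
Gm13242: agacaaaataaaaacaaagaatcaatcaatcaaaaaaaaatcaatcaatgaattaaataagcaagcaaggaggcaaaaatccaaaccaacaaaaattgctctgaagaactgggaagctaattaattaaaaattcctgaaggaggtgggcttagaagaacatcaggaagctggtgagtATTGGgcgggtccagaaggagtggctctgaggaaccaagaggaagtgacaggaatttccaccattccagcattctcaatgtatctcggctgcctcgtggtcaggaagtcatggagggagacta
2610305D13Rik: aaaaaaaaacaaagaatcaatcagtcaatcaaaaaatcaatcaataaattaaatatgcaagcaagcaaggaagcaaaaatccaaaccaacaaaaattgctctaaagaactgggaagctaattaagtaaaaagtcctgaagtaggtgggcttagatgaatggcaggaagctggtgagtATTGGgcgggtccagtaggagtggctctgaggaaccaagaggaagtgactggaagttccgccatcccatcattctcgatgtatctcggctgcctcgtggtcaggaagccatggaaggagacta
The promoter of Gm14431 was identical to that of Gm8898 over all 300 bases, and that of Gm14420 matched them at 293. Among the 5 chromosome 2 genes in the table, 265 to 300 of 300 aligned bases matched, and among the 5 chromosome 4 genes 140 to 274, while pairs between the groups matched at 137 to 162. Pairs among 17 other genes of neighbour groups had a median of 149. Each of the 5 chromosome 2 promoters held CCAAT at 2 places, and CCGGAAG was found in those of Gm8898 and Gm14431.

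The chromosome 2 genes rose from G1 to G2 in B6CASTF1, less uniformly in C57BL/6J, and 5 of the 6 fell at the 2-cell stage. From G1 to G2 in B6CASTF1 all 6 rose in the authors' deposited table, by 2.11 to 2.52 on the log2 scale. At that step 9.63% of all genes tested and 16.4% of other abundant genes rose. In C57BL/6J 3 of 6 rose between MII egg and G1 zygote and 3 of 6 from G1 to G2 (Gm14296, Gm14420 and Gm6182 at both steps), and the other 3 had fold changes of 1.25 to 1.31 and 1.58 to 1.81 with larger errors. Of all genes tested 1.62% and 5.01% rose at these 2 steps, and of other abundant genes 4.28% and 10.1%. Gm8898 and Gm14431 carry the same value in every column, and all 31-base words of Gm14431 lie in Zfp966, so the 2 rows count as 1 measurement. Gm14296 and Gm6182 had nearly the same values in every comparison, with means of 1633 and 1557 in C57BL/6J and of 7443 and 7357 in B6CASTF1. Whether these 2 rows draw on the same reads was not tested, and they may not be independent. Gm8898 had implied levels of 921 in MII eggs, 2282 in G1 and 8005 in G2 zygotes and 37.6 in 2-cell embryos of C57BL/6J, and of 5631, 32362 and 197 in B6CASTF1. Its fall was the steepest of the group, with log2 fold changes of -7.74 ± 0.94 (SE) and -7.36 ± 0.25. Gm14296, Gm6182 and Gm14325 fell less, from -0.87 to -1.81 in C57BL/6J and, in B6CASTF1, from -2.08 to -2.68. Gm14420 did not pass the test at that step in either strain (0.19 ± 0.32 and 0.21 ± 0.13) and kept an implied level of 10502 and 25449 in 2-cell embryos. Of all genes tested 25.3% fell at the 2-cell step in C57BL/6J and 26.8% in B6CASTF1, and of other abundant genes 34.9% and 46.5%. All 6 are copies, with 61.5% to 100% of their 31-base words in other genes.

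The chromosome 4 genes followed another course. None of the 5 was called before the 2-cell stage in the 3 earlier comparisons by DESeq2, and 0 had an unadjusted p under 0.05. At the 2-cell stage 3 rose in C57BL/6J and 4 in B6CASTF1, steps at which 25% and 33.1% of all genes tested and 31.8% and 40.2% of other abundant genes rose. Gm13157 rose by 2.34 ± 0.54 and 2.16 ± 0.27 (SE) on the log2 scale in the authors' deposited tables, Gm13051 by 1.86 ± 0.52 and 1.97 ± 0.28 and Gm13242 by 1.46 ± 0.52 and 1.12 ± 0.20. Of these, Gm13157 was under 1000 in every earlier stage of both strains, so its rise was required by the rule. For Gm13152 the values were 1.31 ± 0.66, which did not pass, and 1.17 ± 0.13, which did. 2610305D13Rik, the most abundant of the 5 by count, was flat in C57BL/6J (-0.04 ± 0.44) and lower in B6CASTF1 (-0.40 ± 0.18, adjusted p = 0.0452).

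**Figure D4:**
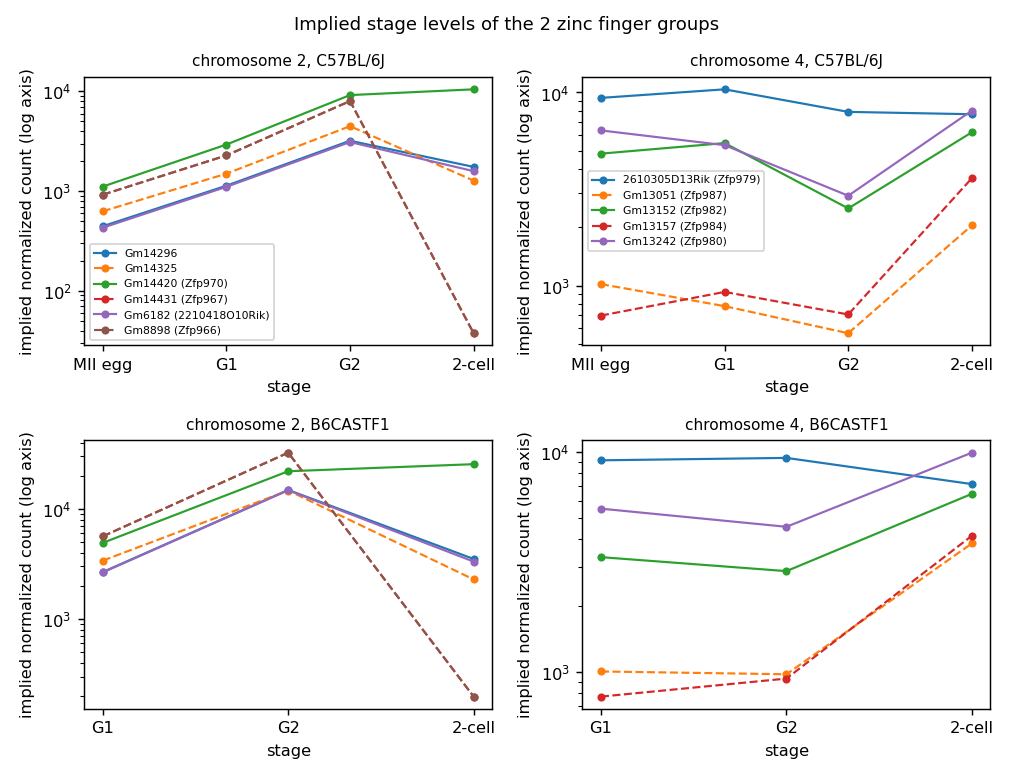
Implied normalized counts (log axis) of the chromosome 2 genes (left) and chromosome 4 genes (right) are drawn by stage for C57BL/6J (top) and B6CASTF1 (bottom), 1 line per gene; the lines of Gm8898 and Gm14431 coincide. The chromosome 2 lines climb to the G2 zygote and all but that of Gm14420 then drop, and 4 of the 5 chromosome 4 lines climb only at the 2-cell stage.

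Prame-like genes encode leucine-rich repeat proteins, and many of them, among them the Oog genes, are known from eggs. The set held 10: the 6 that RefSeq names Pramel, on chromosomes 4, 5 and 12, and 4 neighbours of these (Gm2042, Gm6367, Gm3286 and E330014E10Rik). In B6CASTF1 8 of 10 rose from G1 to G2 in the authors' deposited table, by 0.51 to 2.68 on the log2 scale, while 0 of 9 were called in C57BL/6J by DESeq2, where 2 had an unadjusted p under 0.05. At that step 9.63% of all genes tested and 16.4% of other abundant genes rose in B6CASTF1, and 5.01% and 10.1% in C57BL/6J. At the 2-cell stage 8 fell in each strain. Of all genes tested 25.3% fell there in C57BL/6J and 26.8% in B6CASTF1, and of other abundant genes 34.9% and 46.5%. Gm13084 (Pramel26) went from an implied 23575 to 559 and from 55898 to 2109, and Gm13023 (Pramel25) from 35580 to 3038 and from 63393 to 3703. Gm10436 (Pramel51) fell least, with log2 fold changes of -1.62 ± 0.25 and -2.18 ± 0.14. Gm3139 (Pramel42) went the other way, from an implied 57.7 to 8810 in C57BL/6J and from 95.1 to 19029 in B6CASTF1. Gm3286 and E330014E10Rik, neighbours on chromosome 5, also went opposite ways. E330014E10Rik fell from an implied 2446 to 2.1 and from 4290 to 11.5 (-10.17 ± 0.78 and -8.55 ± 1.11), the lowest fold change of the set in each strain. Gm3286 had no p-value in C57BL/6J and rose by 4.84 ± 0.80 in B6CASTF1, from an implied 811 to 23200. Like Gm3139, it was under 1000 before the 2-cell stage in both strains, so the rule required the rises of Gm3139 and Gm3286. Since 91.0% of the 31-base words of E330014E10Rik lie in Gm3286 and 83.9% of those of Gm3286 in E330014E10Rik, both values depend on how reads were shared between the copies, which no source used here states. The same limit holds for the whole family: all 10 are copies, with 51.9% to 96.5% of their 31-base words in other genes. For Gm3139, 87.1% lie in Gm3183.

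**Figure D5:**
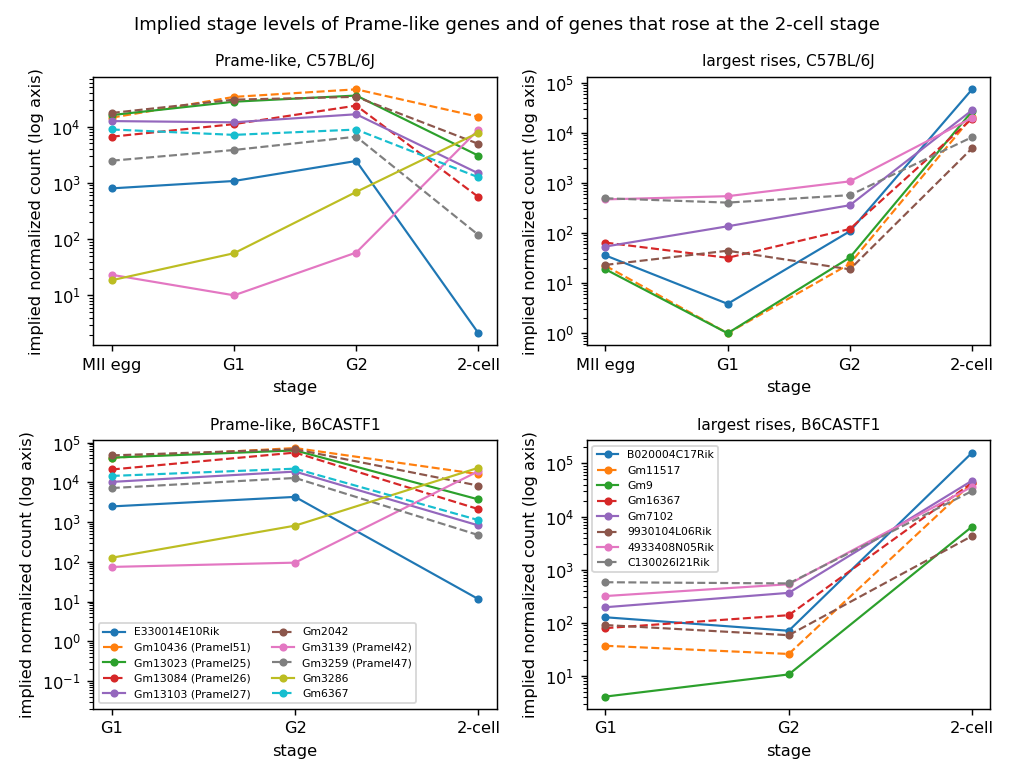
Implied normalized counts (log axis, values under 1 drawn at 1) by stage in C57BL/6J (top) and B6CASTF1 (bottom) are shown for the 10 Prame-like genes (left) and for the 8 genes outside that family called higher at the 2-cell stage in both strains that have the highest B6CASTF1 fold change (right). Among the Prame-like genes 8 lines drop at the 2-cell stage and those of Gm3139 and Gm3286 climb.

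On chromosome 1 the neighbours A530032D15Rik and C130026I21Rik resemble Sp140, which encodes a nuclear body protein of immune cells. A530032D15Rik went from an implied 837 in G2 zygotes to 7568 in 2-cell embryos of C57BL/6J and from 655 to 17718 in B6CASTF1. For C130026I21Rik the levels were 574 and 8281, and 550 and 30225. The log2 fold changes in the authors' deposited tables were 3.18 ± 0.40 (SE) and 4.76 ± 0.21 for the first and 3.85 ± 0.49 and 5.78 ± 0.27 for the second. Sp140 itself shares 40.6% of the 31-base words of A530032D15Rik and moved the same way, by 3.58 ± 0.36 and 3.97 ± 0.24. A530032D15Rik and C130026I21Rik were under 1000 in every earlier stage of both strains and reached the threshold only through their 2-cell level. Their rises thus had to be there and are given as descriptions. Promoters of the pair are shown because they match at 275 of 300 bases. They lie at chr1:85109804-85110103 and chr1:85270517-85270816 on the minus strand, and neither holds CCAAT or CCGGAAG, so no letters are in capitals.
A530032D15Rik: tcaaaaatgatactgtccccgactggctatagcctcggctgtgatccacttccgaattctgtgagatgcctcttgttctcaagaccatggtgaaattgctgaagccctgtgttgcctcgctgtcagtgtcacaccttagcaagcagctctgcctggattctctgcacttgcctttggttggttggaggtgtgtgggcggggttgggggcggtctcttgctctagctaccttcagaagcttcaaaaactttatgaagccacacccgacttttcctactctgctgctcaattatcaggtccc
C130026I21Rik: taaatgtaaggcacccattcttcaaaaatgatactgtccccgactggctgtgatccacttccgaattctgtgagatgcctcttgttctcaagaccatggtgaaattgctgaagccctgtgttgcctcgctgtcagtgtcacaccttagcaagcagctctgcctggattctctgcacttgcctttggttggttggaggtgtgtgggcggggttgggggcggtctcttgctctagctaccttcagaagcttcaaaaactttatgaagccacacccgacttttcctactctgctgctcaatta
C130026I21Rik is 1 of the 13 genes with over 10% of exon bases under exons of the opposite strand. On chromosome 6 3 noncoding neighbours between 89096110 and 89216179, 4933427D06Rik, Gm1965 and Gm839, all fell at the 2-cell stage in both strains. Their log2 fold changes were -4.26, -4.03 and -2.69 in C57BL/6J and -5.89, -5.50 and -3.35 in B6CASTF1.

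The 23 other genes that RefSeq now names by a symbol of another form include genes with known roles. At the 2-cell stage 4 of 22 tested rose and 14 fell in C57BL/6J in the authors' deposited table, where 25% of all genes tested rose and 25.3% fell. In B6CASTF1 3 of 23 rose and 15 fell, against 33.1% and 26.8% of all genes. 1200014J11Rik, now Ncbp3, a cap-binding protein, rose by 1.71 ± 0.49 and 1.99 ± 0.33 (SE) on the log2 scale. A230046K03Rik, now Washc4, a subunit of the actin-nucleating WASH complex, rose by 1.16 ± 0.47 and 1.49 ± 0.34. 2700060E02Rik, now Rtraf, an RNA-binding subunit of the tRNA ligase complex, rose after fertilization in C57BL/6J (1.01 ± 0.26) and fell at the 2-cell stage (-1.36 ± 0.26 and -0.94 ± 0.18). 0610007P14Rik, now Erg28, of the sterol pathway, fell in both strains (-1.28 ± 0.28 and -2.52 ± 0.20), and so did Gm15698 (Elobl, -3.92 ± 0.25 and -2.90 ± 0.17). 2810474O19Rik, now Resf1, a retroelement silencing factor, did not pass in C57BL/6J (0.31 ± 0.69) and fell in B6CASTF1 (-0.58 ± 0.21). C330027C09Rik, now Cip2a, an inhibitor of the phosphatase PP2A, did not pass at the 2-cell step in either strain (-0.34 ± 1.02 and 0.15 ± 0.27).

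For several copies the tables also hold the gene they resemble, so the values can be set side by side. Gm1821, now Ubb-ps, has 86.3% of its 31-base words in Ubb, which encodes polyubiquitin. At the step from G1 to G2 its log2 fold changes were 1.06 ± 0.30 (SE) and 0.70 ± 0.14 in the authors' deposited tables, and those of Ubb 1.12 ± 0.30 and 0.71 ± 0.13. At the 2-cell step they were 1.11 and 1.40, and those of Ubb 1.23 and 1.23. Gm10094, now Sap18b, shares 98.8% of its words with Sap18, a subunit of the Sin3 deacetylase complex. At the 2-cell step it fell in C57BL/6J, from an implied 31878 to 15907 (adjusted p = 0.000233), where Sap18 did not pass (0.41 ± 0.43). In B6CASTF1 it did not pass (-0.01 ± 0.21), and Sap18 rose by 1.75 ± 0.36. Gm1943, with every word in Wdr70, rose by 3.21 ± 0.48 in C57BL/6J, where the log2 fold change of Wdr70 was -2.59 ± 0.86. In B6CASTF1 neither passed, with 2.10 ± 0.98 for Gm1943 and 0.12 ± 0.35 for Wdr70. Gm8234 has 28% of its words in the spermine synthase gene Sms and moved against it: its log2 fold changes were -2.11 ± 0.32 and -2.44 ± 0.18, and Sms rose by 0.71 ± 0.27 and 0.84 ± 0.20.

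To compare the strains, the C57BL/6J fold change was subtracted from that of B6CASTF1 on the log2 scale, divided by the SE of this difference and read against the normal distribution (two-sided), with Benjamini-Hochberg adjustment over all genes tested in both. At the step from G1 to G2, 1 of 125 genes was called higher and 2 lower in B6CASTF1, against 1.04% and 0.879% of all genes tested and 0.259% and 1.3% of other abundant genes. The gene called higher was 1110008F13Rik (Rab5if), with a difference of 1.51 ± 0.40 (SE): it rose in B6CASTF1 from an implied 1358 to 2406 and went from 1583 to 983 in C57BL/6J. Exons of the opposite strand lie over 25.5% of its exon bases. The others, Gm11517 and B020004C17Rik, rest on C57BL/6J levels of under 1 and 3.9 in G1 zygotes. At the 2-cell step 20 were higher and 8 lower, against 11.6% and 5.03% of all genes tested and 13% and 8.82% of other abundant genes. Strain differences at that step were thus about as frequent as among other abundant genes. Gm8801, a pseudogene on chromosome 17, fell from an implied 1581 to 3.1 in C57BL/6J and from 6669 to 453 in B6CASTF1, a difference of 5.10 ± 0.65 (adjusted p = 1.82e-12). Gm5065 on chromosome 7 fell from an implied 4734 to 9.13 and from 3695 to 121, a difference of 4.09 ± 0.48 (adjusted p = 1.10e-14). Both genes thus fell in both strains, with a smaller fold change in B6CASTF1. These 2 differences rest on C57BL/6J 2-cell levels of 3.1 and 9.13, near 0, so their size is uncertain. Gm11237, C130046K22Rik and 2500002B13Rik rose in B6CASTF1 alone, with differences of 2.75, 2.50 and 1.85. Lower in B6CASTF1 were Gm13752, A730082K24Rik, 4933427D06Rik, Gm1965, 1110059E24Rik, 0610007P14Rik, Gm14296 and Gm6182, with the lowest difference, -2.35 ± 0.69, for Gm13752. Gm14296 and Gm6182 had nearly the same values throughout, so these may not be 2 separate differences. The median SE of the 2-cell fold change over that of the step before was 1.12 in B6CASTF1, for 33 genes at or above 1000 in every stage of both strains, and 2 samples in place of 3 also give a ratio of 1.12.

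Promoters of 91 of the genes were in the RefSeq table of 27025 genes and were searched on both strands. The Nr5a2 motif TCAAGGTCA was in 0 of the 91 and in 0.466% of all promoters, and its shorter core AAGGTCA, which is part of it, in 4 of 91 (4.40%) against 5.38%. CCAAT was in 50 of 91 (54.9%) against 41.1%, CCGGAAG in 17 (18.7%) against 9.93% and the TATA box TATAAA in 14 (15.4%) against 15.7%. Among the 19 genes with a promoter that rose at the 2-cell stage in both strains CCAAT was in 12, and among the 52 that fell in both it was in 26. The copies share promoter sequence, so these counts are not independent, and a match or its absence in this window says nothing on a factor.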

How the data were processed

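Smart-seq2 libraries of egg and embryo batches were sequenced by the authors, whose submitters' processing notes name bcl2fastq, kallisto, TopHat, Picard, DESeq2 and the build mm10 without saying which step made the tables. The 5 tables of 24411 symbols each, which compare consecutive stages within a strain, were made by the authors, whose file names give DESeq2 1.18.1. Each deposited row holds, per the file headers, the mean normalized count over a strain's samples (a signal value), the log2 fold change with its SE, the Wald statistic (a score), the p-value and the adjusted p. Consecutive comparisons of a strain share samples. No values per sample are in the tables, so the depth is unknown and no replicate can be left out.

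Computed here were the choice of genes by name and mean, implied stage levels, counts of calls at an adjusted p under 0.05, and the strain difference test. That test was also run on simulated fold changes, whose normal errors were drawn with the deposited SEs. The simulation took these SEs as right, so it cannot show whether they are. The implied levels assume that the tables of a strain share 1 set of size factors. Annotation came from RefSeq GRCm38.p6 and GENCODE M21, and shared 31-base words were counted over the transcripts of the latter. Promoter sequences are RefSeq's. Tables were handled in Python 3.11.15 with pandas 2.3.3 and numpy 2.4.6, p-values came from scipy 1.17.1, alignments from Biopython 1.88 and figures from matplotlib 3.10.9. The genes, the lists and the alternatives were chosen with earlier results of these data known, and the neighbour and family groups after the values were seen. Genes are named where they had the highest levels, had the largest called changes or belonged to a described group, by a rule written down together with the tests. Alternatives were another minimum mean, another adjusted p, a minimum fold change, the authors' shrunken fold changes, recentring, adjustment over genes with a mean of at least 100, larger SEs and the omission of genes with 1 exon. Leaving out the copies and the genes under opposite-strand exons was added after the data were seen.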

Additional observations from a re-analysis of the deposited data

Results flagged for a closer look

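Of the genes with a called difference between the strains, those with the largest differences at each step are listed here, as the log2 fold change in B6CASTF1 minus that in C57BL/6J, in authors' values with the difference computed here. From G1 to G2 zygotes the difference was 1.51 for 1110008F13Rik, -7.86 for Gm11517 and -5.66 for B020004C17Rik. The last 2 were at an implied 0.150 and 3.87 in C57BL/6J G1 zygotes. For 1110008F13Rik, 25.5% of exon bases lie under exons of the opposite strand, and the part of this in the difference was not tested.

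Between G2 zygotes and 2-cell embryos the difference was 5.10 for Gm8801, 4.09 for Gm5065, 2.75 for Gm11237, 2.57 for 6820431F20Rik, 2.50 for C130046K22Rik and 2.43 for Gm38415. Gm8801 and Gm5065 fell in both strains, Gm11237 and C130046K22Rik rose in B6CASTF1 alone, and 6820431F20Rik and Gm38415 fell in C57BL/6J alone. In C57BL/6J 2-cell embryos Gm8801 and Gm5065 were at an implied 3.13 and 9.13. On the other side the difference was -2.35 for Gm13752, -1.96 for A730082K24Rik, -1.63 for 4933427D06Rik, -1.47 for Gm1965, -1.35 for 1110059E24Rik and -1.23 for 0610007P14Rik. All of these fell at that step in both strains except 1110059E24Rik, which fell in B6CASTF1 alone. Gm11237 has every 31-base word in transcripts of other genes, and C130046K22Rik lies in part under exons of the opposite strand. The part of these overlaps in the differences was not tested.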

How the results depend on the processing

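No gene count changed direction under any alternative run: 92 counts stayed within 1.5 times the reported value and 23 did not. With a minimum mean of 2000, which leaves 72 genes, 1 gene fell between MII egg and G1 zygote, 17 rose from G1 to G2 in C57BL/6J and 31 rose and 7 fell in B6CASTF1; at the 2-cell stage 16 rose and 44 fell, and 19 rose and 47 fell; strain differences were 0 higher from G1 to G2 and 12 higher and 5 lower at the 2-cell stage. Without the copies and the genes lacking a transcript, which leaves 93, 7 rose between MII egg and G1 zygote and 30 from G1 to G2 in B6CASTF1. Without genes of 1 exon 1 fell between MII egg and G1 zygote. From G1 to G2 in B6CASTF1, 7 fell at an adjusted p under 0.01, 7 after recentring, and 27 rose and 3 fell with an absolute log2 fold change of at least 1. At an adjusted p under 0.01 there were 0 higher strain differences from G1 to G2. With SEs raised 1.5 times the strain differences were 0 higher and 0 lower from G1 to G2, and 7 higher and 0 lower at the 2-cell stage. Among single genes 309 values kept their side of the threshold, 11 lost it and 1 gained it. Those lost were 10 strain differences with raised SEs (1110008F13Rik, B020004C17Rik, Gm11517, 0610007P14Rik, 1110059E24Rik, 4933427D06Rik, 6820431F20Rik, A730082K24Rik, Gm13752 and Gm1965) and E330034G19Rik from G1 to G2 in B6CASTF1 after recentring. No paired analysis was possible because the files give means and fold changes without single samples, and for the same reason no replicate was left out. The sequencing depth is unknown, and 2 samples stand behind the B6CASTF1 2-cell values.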

Other observations

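Beside the 11 genes that fell in B6CASTF1 alone, genes called from G1 to G2 zygotes in one strain and tested without a call in the other were 23 that rose in B6CASTF1 and 7 that rose in C57BL/6J (1200014J11Rik, 1810009A15Rik, 2310039L15Rik, A530032D15Rik, B020004C17Rik, Gm11517 and Gm9). Of these 7, the strain difference passed its test for B020004C17Rik and Gm11517 only, and it was -1.39 ± 0.57 (SE) for 1200014J11Rik, -0.42 ± 0.32 for 2310039L15Rik and -1.07 ± 0.45 for A530032D15Rik. The median SE of all 130 genes at this step was 0.479 in C57BL/6J and 0.208 in B6CASTF1.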
